A study of Homo sapiens with 21 samples.

Results

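Of the 21 human cancer cell lines in the study, the 10 from lung and pancreas were divided by whether the array detected CDKN2A. The 4 CDKN2A-silent lines had a detection p of 0.05 or more for this gene and were Calu-1 from lung and MIA-PaCa-2, BxPC-3 and Capan-1 from pancreas. The 6 CDKN2A-expressing lines had a lower detection p and were Calu-3, NCI-H596, NCI-H1299 and Malme-3M, labelled as lung, and AsPC-1 and Capan-2 from pancreas. The study read the RNA of each line once on an Illumina BeadChip, in cells grown in standard culture with no treatment, and was set up to relate expression to dependence of growth on the histone demethylase LSD1. The 11 liver cancer lines, on another array design, were not used here. The groups were thus chosen by the detection p of CDKN2A, and CDKN2A itself was not tested. All other genes were compared between groups as CDKN2A-silent minus CDKN2A-expressing, so a negative log2 difference is a lower level in the silent lines.

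CDKN2A lies on the short arm of human chromosome 9 and encodes 2 unrelated proteins from overlapping transcripts. The p16 protein inhibits the kinases CDK4 and CDK6, which otherwise phosphorylate RB1 and free the E2F factors to drive entry into DNA replication, and the ARF protein blocks the ubiquitin ligase MDM2. In lung and pancreatic cancers the gene is often lost by deletion of a stretch of chromosome, which can take neighbouring genes with it, or is switched off by promoter methylation or mutated. The neighbour MTAP encodes the enzyme that recycles methylthioadenosine, a by-product of polyamine synthesis, back towards methionine. DNA copy number and methylation were not measured in the files used here, so loss of a gene and silencing of an intact one cannot be told apart, and each group differs in much besides CDKN2A.

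CDKN2A raw signal was 124 in Calu-1, 116 in MIA-PaCa-2, 141 in BxPC-3 and 122 in Capan-1. In the expressing lines the lowest was 622 in Capan-2, the highest was 2952 in AsPC-1, and the other lines stood at 1068 in Calu-3, 1523 in NCI-H596, 1597 in NCI-H1299 and 1623 in Malme-3M. The fitted mean of the negative controls was between 113 and 140 on the 10 arrays, so the silent lines were at background. Just inside the rule, BxPC-3 had the lowest detection p of the silent lines at 0.27, and just outside it Malme-3M had the highest of the expressing lines at 0.04. Which of the CDKN2A transcripts the probe reads was not determined. Between 40.8% and 43.7% of the rows were detected per array, and the 95th percentile of raw signal stood at 32.9 to 43.2 times the control mean.

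Tissue was unevenly spread over the groups, with 1 lung and 3 pancreatic lines among the silent and 4 lung and 2 pancreatic lines among the expressing lines. Defining markers did not always follow the labels. NKX2-1 and SFTPB, markers of lung epithelium, were not detected in any of the 10 lines, while 4 of 12 listed lung markers were detected widely enough to test. The line Malme-3M is usually described as melanoma, yet MLANA, TYR and SOX10 were undetected and the epithelial genes EPCAM and KRT19 stood at 13.40 and 13.21 log2 intensity. In the library labelled Calu-3, the epithelial cadherin CDH1 was undetected (4.87) while the neuroendocrine granule protein CHGA stood at 12.54. In the library labelled Capan-2, the epithelial keratin KRT8 was undetected (5.54) and the fibrillar collagen COL3A1 stood at 13.84. The mean of its mesenchymal list was not extreme, at 8.35 between 7.40 in Capan-1 and 10.14 in Calu-1. Its neuroendocrine list averaged 9.42, where Calu-3 had 9.53, and its pancreatic ductal list 5.87, the lowest of the 10 lines. The libraries labelled Malme-3M, Calu-3 and Capan-2 all fall among the expressing lines, so results are also given without these 3 libraries. The leukocyte markers PTPRC and CD3E were undetected in all 10 lines, while 5 of 12 listed leukocyte markers were detected widely enough to test. The mean of those 5 was highest in AsPC-1 (9.87) and lowest in NCI-H1299 (6.88). As each line was read once and is a different tumour, limma p-values set the group difference against the spread between lines within groups. That spread is pooled over both groups and drawn towards the spread typical of all genes.

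Of 16858 genes tested, 7 differed at an adjusted p of 0.05 (0.0415%; limma, Benjamini-Hochberg). Of these, 3 were lower in the silent lines (0.0178%): KLHL9, MTAP and DMRTA1, all neighbours of CDKN2A. The other 4 were higher (0.0237%): the chemokine gene CXCL1, the metallothionein gene MT1E, the metallothionein pseudogene MT1P3 and the interferon-induced gene MX2. All 7 passed with no background correction too, where the log2 differences were closer to 0, at -3.35 for KLHL9, -3.36 for MTAP, -1.61 for DMRTA1, 4.58 for CXCL1, 4.25 for MT1P3, 5.62 for MT1E and 3.23 for MX2. With tissue as a covariate all but MX2 passed. The tissue term, like the within-tissue differences below, uses the labels, also for the 3 libraries whose markers went against them. At an unadjusted p under 0.05 stood 565 genes (3.35%). The groups did not overlap for 48 genes with the silent lines below (0.285%) and for 73 with them above (0.433%). The median log2 difference over all genes was near 0 at -9e-04, with 50.1% of genes below 0 and 49.9% above.

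**Figure D1:**
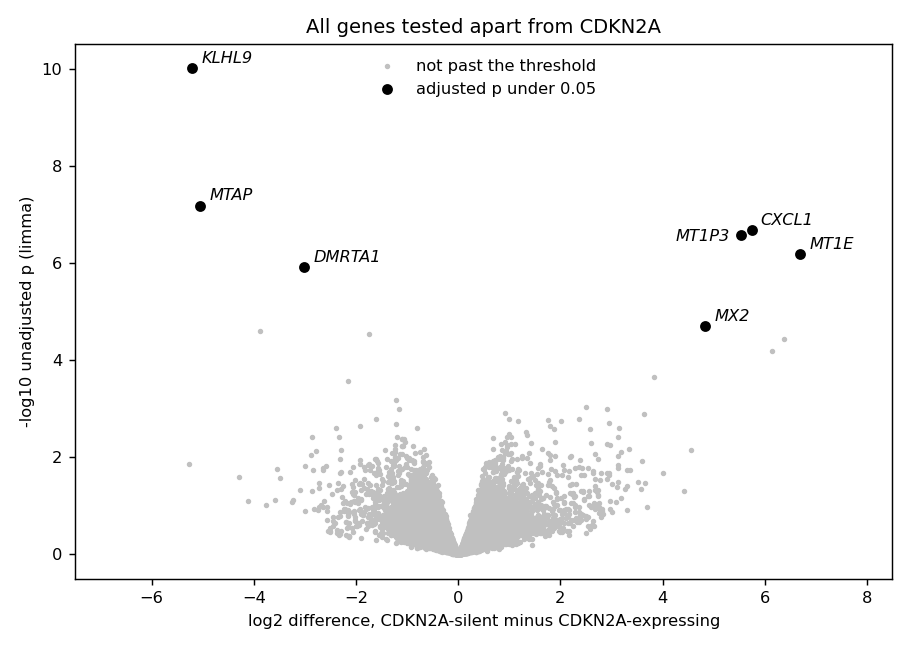
Each point is one of the 16858 genes tested, with the log2 difference (CDKN2A-silent minus CDKN2A-expressing) on the x axis and the unadjusted limma p as -log10 on the y axis. Black points are the 7 genes with an adjusted p under 0.05, of which KLHL9, MTAP and DMRTA1 lie on the left and CXCL1, MT1P3, MT1E and MX2 on the right.

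The 3 genes that were lower lie on both sides of CDKN2A on chromosome 9, with other genes between them. From the end of the chromosome towards its centre, the order in the RefSeq annotation is FOCAD, HACD4, the interferon alpha cluster with KLHL9 inside it, IFNE, MTAP, CDKN2A, CDKN2B, DMRTA1 and TUSC1. The RefSeq annotation placed 12549 of the 16858 tested genes on a chromosome, 510 of them on chromosome 9. The 3 called there are all within this run. In the promoters below, CpG dinucleotides, the sites at which a promoter can be methylated, are in capitals. These promoters, of KLHL9, MTAP, CDKN2B and DMRTA1, are shown because the genes lie near CDKN2A and had the silent lines entirely below. Each is the 250 bases before the gene's start, 5′ to 3′ on the gene's strand, from RefSeq on GRCh38.p14: KLHL9 at chr9:21335405-21335654 on the minus strand, MTAP at chr9:21802386-21802635 on the plus strand, CDKN2B at chr9:22009306-22009555 on the minus strand and DMRTA1 at chr9:22446574-22446823 on the plus strand.
KLHL9: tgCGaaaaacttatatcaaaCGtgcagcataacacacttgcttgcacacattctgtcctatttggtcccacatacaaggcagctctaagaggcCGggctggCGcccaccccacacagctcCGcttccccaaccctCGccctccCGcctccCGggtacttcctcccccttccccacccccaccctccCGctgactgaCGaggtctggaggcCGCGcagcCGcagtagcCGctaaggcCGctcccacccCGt
MTAP: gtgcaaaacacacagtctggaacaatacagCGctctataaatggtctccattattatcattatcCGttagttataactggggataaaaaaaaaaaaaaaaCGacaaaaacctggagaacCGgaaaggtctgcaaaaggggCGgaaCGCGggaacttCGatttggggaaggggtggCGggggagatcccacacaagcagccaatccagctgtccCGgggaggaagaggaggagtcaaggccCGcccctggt
CDKN2B: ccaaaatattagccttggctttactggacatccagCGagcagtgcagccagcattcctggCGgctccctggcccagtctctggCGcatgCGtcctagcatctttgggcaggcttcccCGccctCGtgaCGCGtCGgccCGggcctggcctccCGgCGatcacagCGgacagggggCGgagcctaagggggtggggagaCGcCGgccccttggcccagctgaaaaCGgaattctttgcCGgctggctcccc
DMRTA1: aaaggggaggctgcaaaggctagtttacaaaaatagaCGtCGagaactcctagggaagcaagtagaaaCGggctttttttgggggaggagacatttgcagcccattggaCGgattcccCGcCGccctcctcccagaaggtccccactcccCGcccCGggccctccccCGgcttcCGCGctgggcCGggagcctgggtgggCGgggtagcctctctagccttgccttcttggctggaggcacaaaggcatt
The motif searched was CG, which reads the same on both strands. It occurred 16 times for KLHL9, 11 for MTAP, 18 for CDKN2B and 13 for DMRTA1, against a median of 11 over the 35116 RefSeq windows of the same length. As many or more were held by 41% of windows for KLHL9, 50.3% for MTAP, 36.8% for CDKN2B and 46.6% for DMRTA1, and 93.9% of windows held at least 1. The counts describe the letters only.

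KLHL9 encodes a substrate adaptor of the cullin 3 ubiquitin ligase that acts on Aurora B kinase in dividing cells. Its log2 intensity was 5.13 in Calu-1, 5.23 in MIA-PaCa-2, 5.38 in BxPC-3 and 5.21 in Capan-1, and in the expressing lines it ran from 9.94 to 10.71 with a median of 10.49. No silent line detected it, every expressing line did, and a gap of more than 4 log2 units lay between the groups. The mean was 5.24 ± 0.11 in the silent lines (SD, n = 4) and 10.45 ± 0.27 in the expressing lines (SD, n = 6). The fitted difference was -5.21 (SE 0.20; limma, adjusted p = 1.66e-06). Set against the lowest detected signal of each array, the level was 33.1-fold lower. This size depends on the background treatment, and the log2 difference was -3.35 with none. KLHL9 also passed within the pancreatic lines (-5.28; limma, adjusted p = 0.0016). Within the lung lines, where Calu-1 is the only silent line and has no replicate, the difference was -5.27. Within-tissue differences here and below are contrasts from a single fit to all 10 lines. Their p-values use a spread pooled over lung and pancreatic lines, so they are not separate tests of each tissue. Without the 3 libraries named above it stood at -5.07 (limma, adjusted p = 0.00202).

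MTAP was at 5.18 in Calu-1, 6.18 in MIA-PaCa-2, 5.65 in BxPC-3 and 5.25 in Capan-1. In the expressing lines the lowest value was 9.87, the median 10.52 and the highest 11.82, in Malme-3M. The groups did not overlap, and MIA-PaCa-2 was the one silent line to detect the gene, at a detection p of 0.04. The mean was 5.56 ± 0.46 in the silent lines (SD, n = 4) and 10.61 ± 0.65 in the expressing lines (SD, n = 6) (log2 difference -5.05, SE 0.37; limma, adjusted p = 0.000554). With 3 of 4 silent lines undetected, the size of this difference depends on the background treatment, and it was -3.36 with none. An exact two-sided permutation test, enumerating 210 ways to divide the lines into 4 and 6, gave p = 0.00952, the smallest it can give. Any gene whose groups do not overlap would give this p, so it adds nothing to the lack of overlap. Among all genes tested, 0.285% had the silent lines entirely below and 0.433% entirely above. The difference was -4.69 within the pancreatic lines (limma, adjusted p = 0.134) and -5.55 within the lung lines (adjusted p = 0.0865), where it did not pass. Without those 3 libraries it was -4.73 (limma, adjusted p = 0.016).

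DMRTA1, a transcription factor gene of the doublesex and mab-3 family on the far side of CDKN2B, was a dimmer gene. It stood at 4.96 in Calu-1, 4.95 in MIA-PaCa-2, 4.96 in BxPC-3 and 4.67 in Capan-1, and ran from 6.94 to 8.42 with a median of 8.01 in the expressing lines. No silent line and every expressing line detected it. The mean was 4.88 ± 0.14 in the silent lines (SD, n = 4) and 7.89 ± 0.56 in the expressing lines (SD, n = 6). The difference was -3.01 (SE 0.30; limma, adjusted p = 0.00347). Set against the lowest detected signal of each array, the level was 5.64-fold lower. This size also depends on the background treatment, and the log2 difference was -1.61 with none. Without those 3 libraries the difference was -3.36 (limma, adjusted p = 0.0164). Within one tissue it did not pass, at -2.82 in the pancreatic lines (adjusted p = 0.321, limma) and -3.04 in the lung lines (adjusted p = 0.352).

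CDKN2B, which encodes the related CDK4 and CDK6 inhibitor p15, missed the threshold. It was at 5.28 in Calu-1, 5.44 in MIA-PaCa-2, 5.29 in BxPC-3 and 5.46 in Capan-1, against 7.74 to 11.10 with a median of 9.11 in the expressing lines. The groups did not overlap, 1 of 4 silent lines detected the gene, and the expressing lines spread over more than 3 log2 units, with AsPC-1 highest and Capan-2 lowest. The difference was -3.88 (SE 0.54; limma, adjusted p = 0.053). It was past the threshold without AsPC-1 (-3.52, adjusted p = 0.0116) and without Capan-2 (-4.18, adjusted p = 0.0152), but not without each of the other 8 lines (adjusted p from 0.116 to 0.253). With no background correction it was -2.28 (limma, adjusted p = 0.646). It was at -4.53 without the same 3 libraries (limma, adjusted p = 0.106). The antisense RNA of this locus, CDKN2B-AS1, was undetected in all 10 lines.

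**Figure D2:**
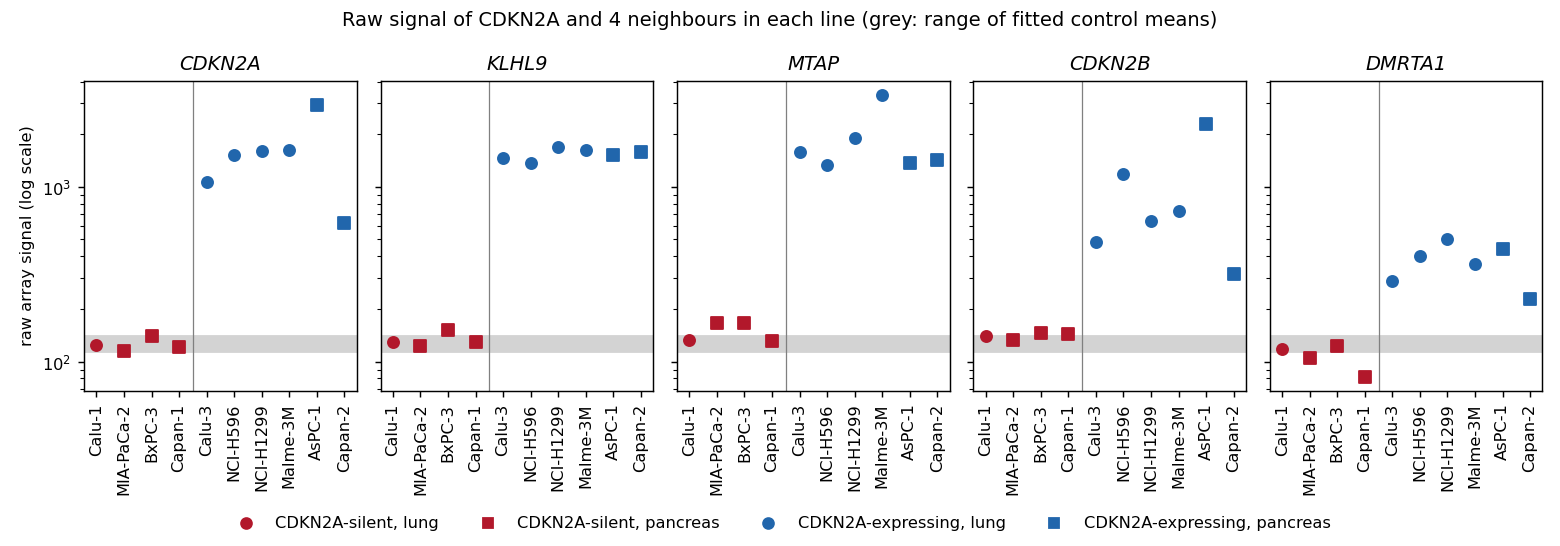
Raw array signal (log scale) of CDKN2A, KLHL9, MTAP, CDKN2B and DMRTA1, 1 point per line, with CDKN2A-silent lines in red to the left and CDKN2A-expressing lines in blue to the right of the divider. Circles are lung and squares pancreatic lines, and the grey band is the range of the fitted control means, 113 to 140; the silent lines lie in or near the band in every panel, and the expressing lines lie above it.

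Outside this core the neighbours differed from line to line. Among all neighbours, 45 of 47 listed genes were on the array and 20 were tested after CDKN2A was set aside, of which 14 were below 0, 3 were called lower (background 0.0178%) and 4 had the silent lines entirely below (background 0.285%). Of the 20, 9 passed the detection filter through the expressing lines alone and 0 through the silent lines alone, so the filter itself leans these counts below 0 and they support nothing. The median of the 20 was -0.26, against -9e-04 over all genes tested, and was -0.03 with no filter, -0.05 with tissue as a covariate and -0.11 with no background correction. FOCAD, which encodes focadhesin, was undetected in MIA-PaCa-2 (4.98) and Capan-1 (4.90) but was at 9.36 in Calu-1 and 8.20 in BxPC-3. In the expressing lines FOCAD ran from 6.28 in AsPC-1 to 10.44, with a median of 9.71, so the groups overlapped (log2 difference -2.38, SE 1.06; limma, adjusted p = 0.9999). TUSC1, a candidate tumour suppressor gene on the other flank, was undetected in the same pair of silent lines, at 4.81 in MIA-PaCa-2 and 5.01 in Capan-1. It was at 9.56 in Calu-1 and 8.64 in BxPC-3, and was also undetected in the expressing lines NCI-H1299 and AsPC-1, with expressing values from 5.14 to 8.81 and a median of 7.90.

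HACD4, a fatty acid elongation gene that lies between FOCAD and KLHL9, was detected in every line. It stood at 9.36 in Calu-1, 9.42 in MIA-PaCa-2, 9.43 in BxPC-3 and 9.12 in Capan-1, against 8.59 to 9.38 with a median of 9.02 in the expressing lines. In MIA-PaCa-2 and Capan-1 a detected gene therefore lay between undetected ones in the annotated order. IFNE was near background in both groups, at 5.47 to 6.16 in the silent and 5.50 to 6.98 in the expressing lines. The interferon genes IFNA1, IFNA5, IFNA8 and IFNB1, which near-identical copies make hard to tell apart on an array, were undetected in all 10 lines and give no information on the stretch between HACD4 and KLHL9.

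Farther out no gene separated the groups. RPS6, a ribosomal protein gene, averaged 15.25 ± 0.18 in the silent lines (SD, n = 4) and 15.19 ± 0.14 in the expressing lines (SD, n = 6). RRAGA, a GTPase of amino acid sensing, averaged 12.15 ± 0.47 in the silent and 12.15 ± 0.93 in the expressing lines. The difference was -0.67 for PLIN2, a lipid droplet protein gene, -0.09 for DENND4C, -0.18 for the ceramidase gene ACER2 and -0.29 for MLLT3. On the centromere side it was 0.31 for CAAP1, 0.30 for PLAA, 0.77 for the ciliary transport gene IFT74, 0.52 for MOB3B, -0.56 for C9orf72 and -0.56 for LINGO2. None of these 12 passed, with a limma adjusted p of 0.9999 for each. Per line, the tested neighbours detected numbered 12 in Calu-1, 11 in MIA-PaCa-2, 15 in BxPC-3 and 12 in Capan-1, against 15 to 19 of 20 in the expressing lines. As 9 of the 20 passed the detection filter through the expressing lines alone and 0 through the silent lines alone, the filter leans these counts too. They support nothing on their own.

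**Figure D3:**
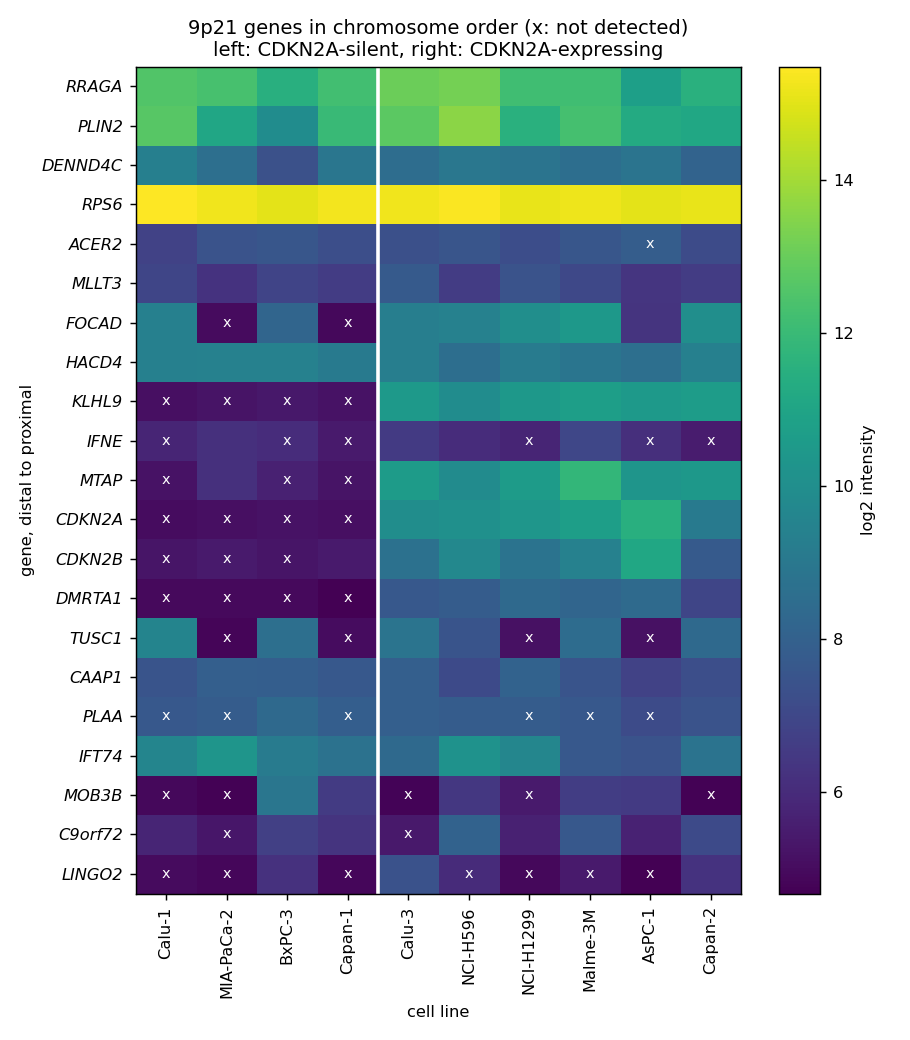
Log2 intensity (colour) of CDKN2A and the 20 tested neighbours in each line, with genes in chromosome order from the end of the short arm (top) towards the centromere (bottom), CDKN2A-silent lines left and CDKN2A-expressing lines right of the white divider. A cross marks a gene that was not detected; KLHL9, MTAP, CDKN2B and DMRTA1 are dark in the 4 silent lines, and FOCAD and TUSC1 in MIA-PaCa-2 and Capan-1 only among the silent lines.

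Across the whole array, few genes shared the presence pattern of CDKN2A. Of 34064 genes, the only ones undetected in all silent and detected in all expressing lines were CDKN2A itself, KLHL9, DMRTA1 and MFAP4, the last an extracellular matrix protein gene named after its values were seen. MFAP4 was dim, at 5.17 to 5.67 in the silent and 6.12 to 7.65 in the expressing lines, and was not called (log2 difference -1.11; limma, adjusted p = 0.9999). CDKN2A set the groups, so its own pattern was fixed. The reverse pattern, detected in all silent and in no expressing lines, was held by 3 entries without a gene symbol. All 3 were dim and none was called, so the pattern was about as common in either direction.

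Among the higher genes, CXCL1 encodes a secreted chemokine that attracts neutrophils through the receptor CXCR2. The upstream windows of CXCL1 and of its relative CXCL5 are shown because both genes separated the groups, with matches to a core of NF-kappaB sites (GGG, any 5 bases, then CC) in capitals. Both are the 250 bases before the start, 5′ to 3′ on the gene's strand, from RefSeq on GRCh38.p14: CXCL1 at chr4:73869143-73869392 on the plus strand and CXCL5 at chr4:73998678-73998927 on the minus strand.
CXCL1: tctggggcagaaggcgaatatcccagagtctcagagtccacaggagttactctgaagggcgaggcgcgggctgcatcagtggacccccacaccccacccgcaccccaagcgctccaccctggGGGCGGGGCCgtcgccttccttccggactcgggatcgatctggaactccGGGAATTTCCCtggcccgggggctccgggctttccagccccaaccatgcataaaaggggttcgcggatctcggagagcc
CXCL5: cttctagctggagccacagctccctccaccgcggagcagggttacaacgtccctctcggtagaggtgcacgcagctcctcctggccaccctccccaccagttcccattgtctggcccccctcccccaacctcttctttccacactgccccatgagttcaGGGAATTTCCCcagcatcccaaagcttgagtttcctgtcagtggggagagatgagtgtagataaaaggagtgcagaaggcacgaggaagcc
Counting both strands and overlapping matches, CXCL1 held 3, a number reached by 18.4% of the 35116 windows, and CXCL5 held 2, reached by 32.7%, while 54.4% held at least 1. Binding was not measured.

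CXCL1 was at 12.93 in Calu-1, 11.56 in MIA-PaCa-2, 12.21 in BxPC-3 and 13.02 in Capan-1, and ran from 5.44 to 7.90 with a median of 6.60 in the expressing lines. All silent lines stood above all expressing lines. The mean was 12.43 ± 0.68 in the silent lines (SD, n = 4) and 6.69 ± 0.83 in the expressing lines (SD, n = 6), 53.5-fold higher in the silent lines (log2 difference 5.74, SE 0.47; limma, adjusted p = 0.00113). It remained called without the 3 libraries with discordant markers (5.19, adjusted p = 0.0421). Within the pancreatic lines CXCL1 differed by 5.59 (limma, adjusted p = 0.206) and within the lung lines by 6.23 (adjusted p = 0.152), neither past the threshold.

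The list of CXCR2 ligands was drawn up after values had been seen, so its counts carry no test. All 7 tested differences, CXCL1 included, were above 0 with a median of 2.92 (1.90 with no background correction and 4.24 without NCI-H596). Of the 7, 2 passed the detection filter through the silent lines alone and 0 through the expressing lines alone, which leans this count above 0. CXCL1 was the 1 called (background 0.0237%), and of the other 6 only CXCL5 had the silent lines entirely above (background 0.433%). CXCL5 was at 11.66 in Calu-1, 11.28 in MIA-PaCa-2, 9.54 in BxPC-3 and 14.85 in Capan-1, against 4.90 to 7.99 with a median of 5.21 in the expressing lines. Its groups did not overlap, but the difference of 6.13 had an SE of 0.95 and missed the threshold (limma, adjusted p = 0.101). CXCL8, which encodes interleukin 8, was at 11.60 to 13.83 in the silent lines and 6.17 to 14.84 in the expressing lines, where NCI-H596 held the highest value. The difference was 3.66 for CXCL8, 2.92 for CXCL2, 2.58 for CXCL6 and 0.22 for CXCL3, none past the threshold (limma, adjusted p of 0.9999 for each). CXCL1, CXCL2 and CXCL3 are close copies, and cross-hybridisation between their probes was not tested.

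Metallothioneins are small cysteine-rich proteins that bind zinc and copper, and their genes are induced by metals and glucocorticoids. MT1E was at 13.88 in Calu-1, 14.12 in MIA-PaCa-2, 13.70 in BxPC-3 and 13.20 in Capan-1, against 5.99 to 9.45 with a median of 6.49 in the expressing lines. The groups did not overlap, and 1 of 6 expressing lines detected it. The mean was 13.73 ± 0.39 in the silent lines (SD, n = 4) and 7.03 ± 1.30 in the expressing lines (SD, n = 6) (log2 difference 6.70, SE 0.62; limma, adjusted p = 0.00224). MT1P3, listed on the array under an older name on chromosome 20, was at 11.91 in Calu-1, 13.01 in MIA-PaCa-2, 11.67 in BxPC-3 and 11.23 in Capan-1, against 5.57 to 7.63 with a median of 6.15 in the expressing lines. Its groups did not overlap either, and the difference was 5.54 (SE 0.47; limma, adjusted p = 0.00113). Without the 3 libraries with discordant markers the differences were close to these but did not pass: MT1E was at 6.31 (limma, adjusted p = 0.151) and MT1P3 at 5.49 (adjusted p = 0.106). Neither passed within one tissue, with MT1E at 5.96 in pancreatic and 7.19 in lung lines and MT1P3 at 5.20 in pancreatic and 5.67 in lung lines (limma, adjusted p from 0.178 to 0.261).

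The metallothionein list, also drawn up after values had been seen, had 8 tested members of 18. All 8 differences were above 0 with a median of 2.51, 2 were called (background 0.0237%) and 4 had the silent lines entirely above (background 0.433%). Of the 8, 1 passed the detection filter through the silent lines alone, and with no filter the median was 1.36. The member listed as MTE was at 11.13 to 13.11 in the silent lines and 7.02 to 10.44 in the expressing lines (log2 difference 3.82; limma, adjusted p = 0.316). MT1G was at 9.32 to 12.98 in the silent lines and 5.22 to 9.19 in the expressing lines (3.13, adjusted p of 0.9999). The abundant members overlapped between groups, with differences of 1.89 for MT1A, 1.60 for MT1X and 1.54 for MT2A, and AsPC-1 held the lowest value of each. MT1F differed by 1.18 and was undetected in MIA-PaCa-2. These genes are near-identical in sequence, so a probe for one may read another, and the 8 are not independent measurements.

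MX2 encodes an interferon-induced GTPase with antiviral activity. It was at 10.23 in Calu-1, 9.60 in MIA-PaCa-2, 11.15 in BxPC-3 and 11.32 in Capan-1, against 5.04 to 8.28 with a median of 5.29 in the expressing lines. The groups did not overlap, and NCI-H596 was the one expressing line to detect it. The mean was 10.57 ± 0.81 in the silent lines (SD, n = 4) and 5.74 ± 1.25 in the expressing lines (SD, n = 6) (log2 difference 4.84, SE 0.65; limma, adjusted p = 0.0482). This call was close to the threshold. It was lost with tissue as a covariate (4.97, adjusted p = 0.194), without the 3 libraries with discordant markers (4.36, adjusted p = 0.995), and without each line in turn except NCI-H596, with adjusted p from 0.0585 to 0.2 in those 9 fits and 0.000694 without NCI-H596. Within the pancreatic lines MX2 differed by 5.47 (limma, adjusted p = 0.386) and within the lung lines by 4.23 (adjusted p = 0.9995).

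Other members of the interferon-stimulated list were uneven across lines. Of 31 tested members, MX2 included, 28 were above 0 (49.9% of all genes) with a median of 0.94. MX2 was the 1 called (background 0.0237%). Of the 31, 3 passed the detection filter through the silent lines alone and 1 through the expressing lines alone. The median was 0.40 without Calu-1, 1.47 without MIA-PaCa-2 and 0.40 without the 3 libraries with discordant markers, and it was 2.97 in the lung lines and 0.54 in the pancreatic lines. The mean level of the list was 11.42 in Calu-1, 7.68 in MIA-PaCa-2, 9.32 in BxPC-3 and 10.05 in Capan-1, against 7.01 to 10.44 in the expressing lines, with NCI-H596 highest. The groups overlapped. IFI27 was at 14.54 in Calu-1, 5.15 in MIA-PaCa-2, 14.81 in BxPC-3 and 12.34 in Capan-1, against 5.45 to 11.03 with a median of 5.74 in the expressing lines (log2 difference 4.41; limma, adjusted p of 0.9999). IFIT1, whose protein binds viral RNA, differed by 1.87 with overlapping groups and did not pass. The close relative MX1 was undetected in BxPC-3 (4.88), where MX2 was high.

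**Figure D4:**
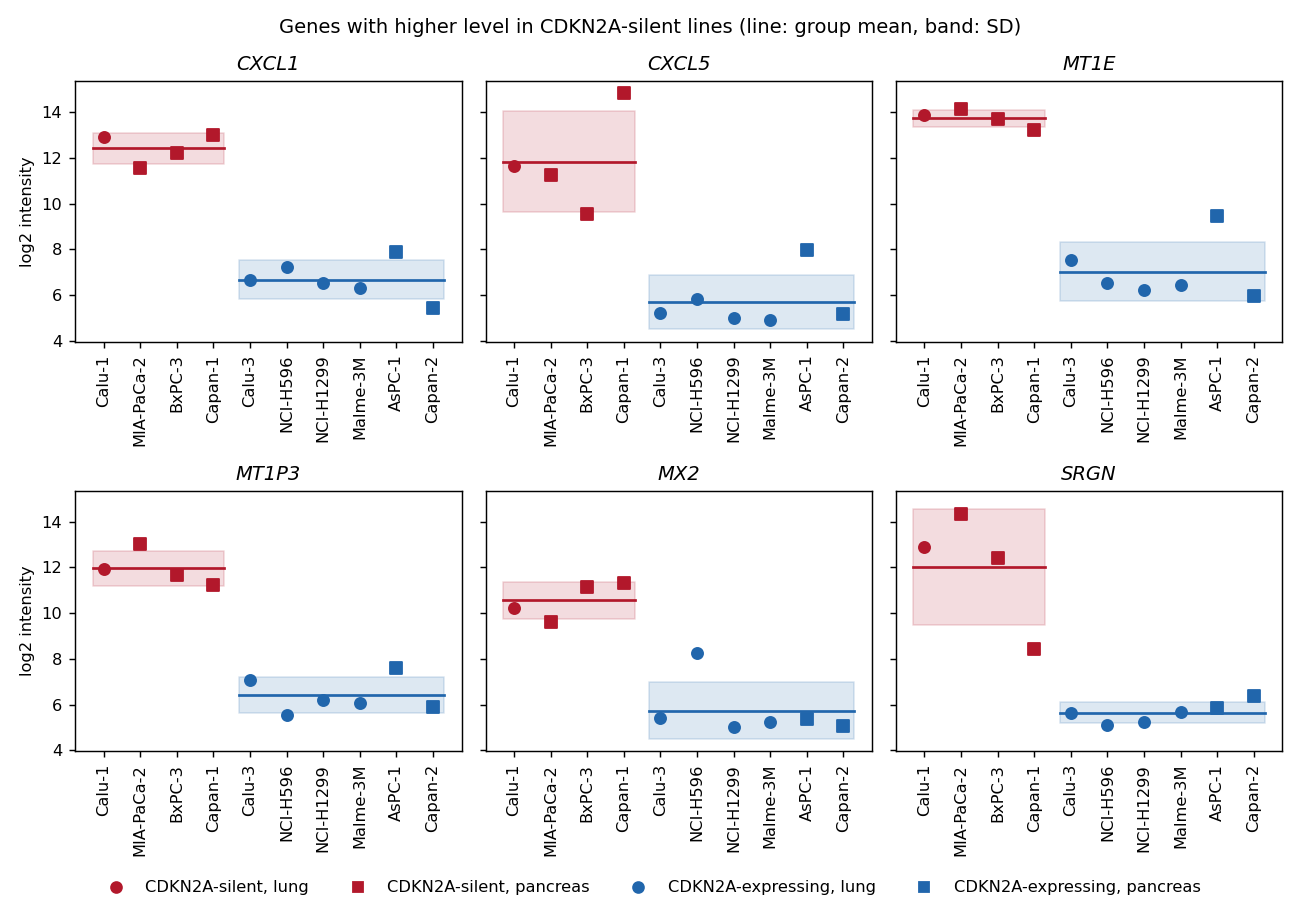
Log2 intensity of CXCL1, CXCL5, MT1E, MT1P3, MX2 and SRGN in each line, with CDKN2A-silent lines in red on the left and CDKN2A-expressing lines in blue on the right. Lines are group means and bands 1 SD (n = 4 and n = 6); all 4 silent lines stand above all 6 expressing lines in every panel, and CXCL5 and SRGN missed the threshold.

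A few further genes had small p-values without passing. SRGN, the proteoglycan core protein serglycin, was at 12.90 in Calu-1, 14.35 in MIA-PaCa-2, 12.42 in BxPC-3 and 8.45 in Capan-1, against 5.10 to 6.36 in the expressing lines. The groups did not overlap, and Capan-1 was well below the other silent lines (log2 difference 6.37; limma, adjusted p = 0.0612, and 0.000235 without Capan-1). GLCCI1, a glucocorticoid-induced gene, was at 5.68 to 6.42 in the silent lines and 7.22 to 8.16 in the expressing lines (-1.75, adjusted p = 0.0535). The homeobox gene BARX2 differed by 2.51 and MNT, a repressor that pairs with MAX, by -1.16, each with the groups apart and an adjusted p of 0.9999. The unplaced genes LOC652226 (-2.16, adjusted p = 0.356) and LOC390298 (-1.22, adjusted p = 0.807) also had the groups apart.

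Among the cell cycle genes downstream of CDKN2A none was called (background 0.0415%). CDK4, the main target of p16, averaged 13.48 ± 0.40 in the silent lines (SD, n = 4) and 13.48 ± 0.48 in the expressing lines (SD, n = 6), a difference below 0.01 in size with an SE of 0.30. CDK6 was at 12.90 in Calu-1, 11.04 in MIA-PaCa-2, 12.87 in BxPC-3 and 12.98 in Capan-1, against 9.53 to 12.92 with a median of 10.98 in the expressing lines (log2 difference 1.26, SE 0.66; limma, adjusted p of 0.9999). The D cyclins, which activate both kinases, differed by -0.14 for CCND1, -2.45 for CCND2 and 0.81 for CCND3. CCND2 was undetected in 3 of 4 silent lines and ran from 5.13 to 14.35 in the expressing lines, so its groups overlapped. CCNE1, the cyclin that acts with CDK2 at the start of replication, was at 8.80 to 10.07 in the silent lines and 6.66 to 9.45 in the expressing lines (1.37, SE 0.53; limma, adjusted p of 0.9999). Of the 13 tested G1 cyclins and kinases, 8 were above 0, with a median of 0.18. Of the 13, 1 had an unadjusted p under 0.05 (background 3.35%) and 0 were called (background 0.0415%).

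RB1, the pocket protein these kinases phosphorylate, was at 9.07 to 10.00 in the silent lines. In the expressing lines it ran from 6.22 in NCI-H596 to 9.77 with a median of 8.98, and the difference of 0.72 did not pass. E2F5, an E2F factor that represses transcription together with pocket proteins, was at 9.58 in Calu-1, 9.99 in MIA-PaCa-2, 8.79 in BxPC-3 and 10.65 in Capan-1, against 10.83 to 12.14 with a median of 11.33 in the expressing lines. The E2F5 groups did not overlap, but the difference of -1.60 (SE 0.38) did not pass over all genes (limma, adjusted p of 0.9999). E2F6, another repressor, differed by -0.83 and E2F1, an activator, by -0.26, both with overlapping groups. In the RB and E2F family as a whole 8 of 17 were below 0, with a median of 0.05. Of the 17, 2 had an unadjusted p under 0.05 (background 3.35%) and 0 were called (background 0.0415%). Of the 7 inhibitors of cyclin-dependent kinases other than CDKN2A, CDKN2B, already counted among the neighbours, was the 1 with an unadjusted p under 0.05 (background 3.35%). CDKN1A, which encodes the inhibitor p21, differed by -0.11 and CDKN2C, the p18 inhibitor, by 0.26, with values spread over more than 3 log2 units within each group.

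The proliferation lists leaned one way with no gene called. All 45 mitosis genes were above 0 with a median of 0.57, and 37 of 39 DNA replication genes with a median of 0.56. Over all genes the median was -9e-04, with 49.9% above 0. Of either list, 0 had an unadjusted p under 0.05 (background 3.35%). The mean of the mitosis list was 11.53 in Calu-1, 11.49 in MIA-PaCa-2, 10.69 in BxPC-3 and 11.09 in Capan-1, against 7.78 in AsPC-1 and 10.05 to 12.01 in the other expressing lines. The replication list was likewise at 10.74 to 11.18 in the silent lines, against 8.05 in AsPC-1 and 10.01 to 11.28 in the other expressing lines. Without AsPC-1 the medians were -0.03 for mitosis and 0.10 for replication, so the lean over all lines rested largely on that line. NCI-H596, at 10.05 and 10.01, was also below every silent line on both lists. In the lung lines, which do not include AsPC-1 and hold Calu-1 as the only silent line, the medians were 0.44 and -0.03. Without the 3 libraries with discordant markers, which leaves AsPC-1 as 1 of 3 expressing lines, the medians were 1.21 and 1.29. In the pancreatic lines, where AsPC-1 is 1 of 2 expressing lines, they were 1.66 and 1.22. AsPC-1 also had the highest mean of the leukocyte list, 9.87 over 5 tested members where NCI-H1299 had the lowest at 6.88, with PTPRC and CD3E undetected; its part in the result was not tested. MKI67, which encodes the Ki-67 proliferation antigen, was at 7.49 to 8.15 in the silent lines and 4.87 to 8.76 in the expressing lines.

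**Figure D5:**
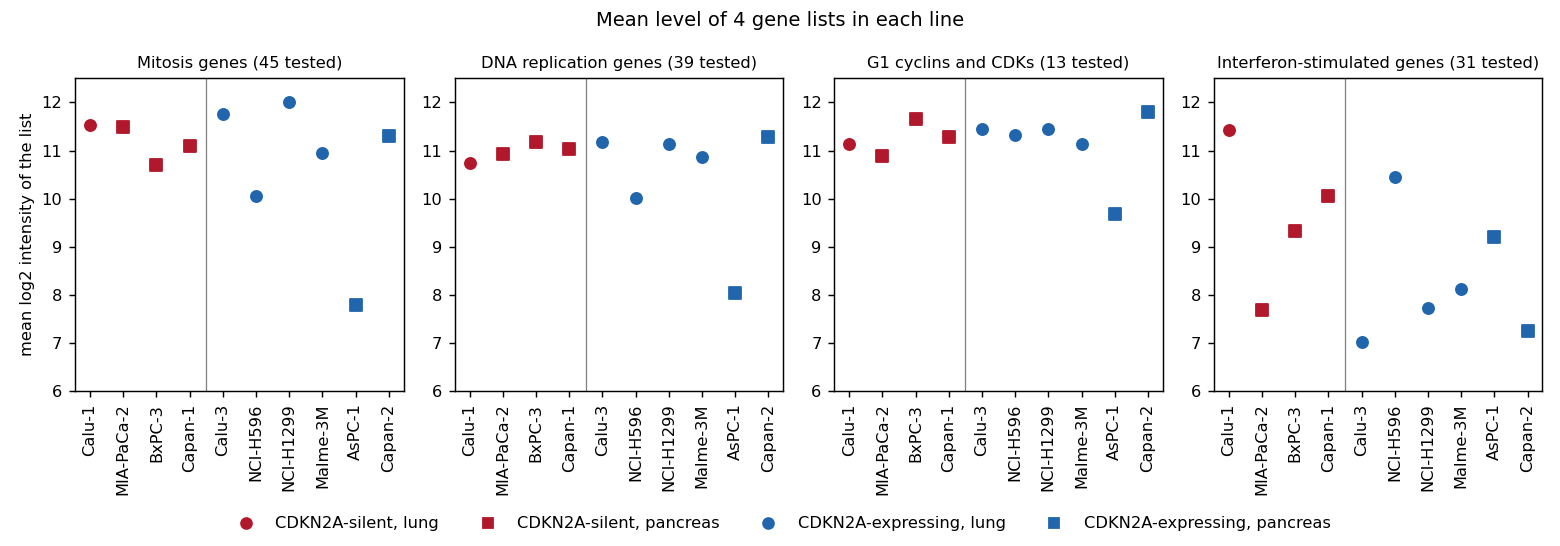
Mean log2 intensity of 4 gene lists in each line, with CDKN2A-silent lines in red on the left and CDKN2A-expressing lines in blue on the right of the divider. AsPC-1 lies lowest on the mitosis (7.78), replication (8.05) and G1 lists, and the interferon-stimulated list spreads widely within both groups.

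MDM2 was undetected in all 10 lines and was not tested.

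The genes around MTAP in methionine and polyamine metabolism were level between the groups. Of 23 tested members 12 were below 0, with a median of -0.0049. Of the 23, 1 had an unadjusted p under 0.05 (background 3.35%) and 0 were called (background 0.0415%). PRMT5, the arginine methyltransferase that methylthioadenosine inhibits, averaged 11.87 ± 0.23 in the silent lines (SD, n = 4) and 11.74 ± 0.53 in the expressing lines (SD, n = 6). MAT2A, which makes the methyl donor S-adenosylmethionine, averaged 13.79 ± 0.58 in the silent and 13.81 ± 0.43 in the expressing lines. AHCYL1, a relative of the enzyme that breaks down S-adenosylhomocysteine, differed by 1.00 (SE 0.36) with overlapping groups. The 25 tested regulators of the CDKN2A locus, among them Polycomb and DNA methyltransferase genes, had a median of -0.04. Of these, 0 had an unadjusted p under 0.05 (background 3.35%). KDM1A, which encodes LSD1, averaged 11.90 ± 0.25 in the silent and 11.88 ± 0.54 in the expressing lines.

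None of the 9 lists of cell type markers held a called gene, which is near the share called over all genes (0.0415%). The neuroendocrine list had a median of -1.45 over 8 tested members, 4 of which passed the detection filter through the expressing lines alone and 0 through the silent lines alone. Its mean was 5.83 to 7.39 in the silent lines and 6.08 to 9.53 in the expressing lines, and its median was -0.58 without the 3 libraries with discordant markers. The epithelial list had a median of 0.51, with means of 7.13 to 11.67 in the silent and 6.20 to 11.90 in the expressing lines, and -0.26 without the same 3 libraries. The medians of the others were 0.98 for pancreatic ductal, 1.04 for squamous, 0.44 for mesenchymal, 0.34 for lung epithelial, 0.39 for fibroblast and endothelial, 0.03 for leukocyte and -0.09 for melanocyte markers. The squamous median was -0.015 without BxPC-3 and the ductal median 0.19 without Capan-1, and in the lung lines they were -0.47 and -0.66. The part of these cell types in the differences above was not tested.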

How the data were processed

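Gene expression was read on Illumina BeadChips in 21 lines, 1 array per line, and the 10 lung and pancreatic arrays were used. The deposited raw table holds intensity per gene, the bead signal before normalization between arrays, and a detection p-value against the negative controls, both per the file headers. The arrays were processed in BeadStudio, per the submitters' processing notes; the sources used here give neither its version, its background treatment nor a genome build. The authors also deposited processed intensity values, used as an alternative. Detection did not follow brightness strictly, and some bright genes were undetected.

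Of 34601 rows, 18933 were named through a RefSeq accession, 1759 by current symbol and 702 by an older symbol, and 13207 kept the listed name. The brightest row per gene was kept, leaving 34064. For background, limma 3.58.1 (R 4.3.3) fitted a normal-exponential model. The control mean and SD it needs came from the medians of signal over genes sharing a detection p, for p from 0.05 to 0.95. After an offset of 16, quantile normalization over the 10 arrays and log2 followed. Genes with a detection p under 0.05 in at least 3 lines were tested with lmFit and eBayes, Benjamini-Hochberg adjusted over all genes. Where no line of a group detected a gene, its fold was taken against the lowest detected signal of each array. Such a fold depends on the background treatment. MTAP was also compared by an exact permutation test (SciPy 1.17.1, Python 3.11.15). Precision is limited by the number of arrays, and the fit was tested on simulated data.

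The groups, the 19 gene lists, the tests and the alternatives were chosen with earlier results of these data known. A further 2 lists (metallothionein genes and CXCR2 ligands), and the fit without 3 libraries, were added after values were seen here. Genes named were those past the threshold, the 8 per direction with the smallest p, the tested neighbours of CDKN2A, list members with an unadjusted p under 0.05, up to 4 per list and direction, and a fixed set of cell cycle and methionine genes. One list of targets downstream of the locus is not reported here. Marker genes and members of the 2 added lists are named as checks. Alternatives varied the background, normalization, offset, filter, tissue term, threshold of the split and the lines included.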

Additional observations from a re-analysis of the deposited data

Results flagged for a closer look

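In 63 genes, each group was checked for a line set far from the others of its group, which gave 126 sets. A line stood apart in 13, where chance gives about 1 in 20. Among the silent lines, DMRTA1 was lowest in Capan-1 (4.67, next 4.95), CDK6 was lowest in MIA-PaCa-2 (11.04, next 12.87), and BxPC-3 was highest for LINGO2 (6.23, next 4.97) and CCND2 (7.65, next 5.28). Among the expressing lines, AsPC-1 was highest for CXCL5 (7.99, next 5.83) and lowest for FOCAD (6.28, next 9.29), CCND3 (10.11, next 12.04) and MT1X (9.27, next 11.92). NCI-H596 was lowest for KLHL9 (9.94, next 10.43) and RB1 (6.22, next 8.84) and highest for MX2 (8.28, next 5.42). Malme-3M was highest for MTAP (11.82, next 10.60) and Capan-2 for CXCL6 (7.01, next 5.60). Several of these values lie near background, where a gap can be small in absolute size, as for DMRTA1 in Capan-1.

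The difference between silent and expressing lines was compared between tissues for all 16858 genes (limma interaction). An adjusted p of 0.05 was passed by 1 gene, KEAP1, which encodes the adaptor that targets NRF2 for degradation and was named after its values were seen; 591 had an unadjusted p under 0.05. The difference in pancreatic lines minus that in lung lines was 5.93 for KEAP1 (limma, adjusted p = 0.0314). It was at 4.81 in Calu-1 and 10.07 to 10.46 in the other silent lines, against 10.00 to 10.98 in the expressing lines. With Calu-1 as the only silent lung line, the comparison has no replicate on that side.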

How the results depend on the processing

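The count of genes past the threshold was 7, and 6 to 10 when each line was left out in turn. KLHL9, MTAP, DMRTA1, CXCL1, MT1P3 and MT1E passed in each of those 10 fits. Leaving out each line gave -5.26 to -4.81 for MTAP and medians of -0.37 to -0.14 for the chromosome 9 neighbours, 0.10 to 0.76 for replication and -0.03 to 0.84 for mitosis genes, the lowest without AsPC-1 for both proliferation lists. All 7 calls were kept with no background correction, with the processed values and with an offset of 64. The log2 difference was then smaller for dim genes, for example -1.61 for DMRTA1 and -3.36 for MTAP with no background correction. MX2 alone was lost with median scaling (adjusted p = 0.0803), no filter (0.162) and tissue as a covariate (0.194). The stricter filter gave 9 calls, with CDKN2B, GLCCI1 and SRGN added and MT1E, detected in too few lines, not tested.

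Within the pancreatic lines KLHL9 was the 1 gene to pass, and within the lung lines 3 passed (KLHL9, and FN1 and KEAP1, both named after their values were seen). MTAP passed in neither (-4.69 in pancreatic and -5.55 in lung lines), with 5 lines each and 1 silent lung line assumed to vary like the other lines. Without the libraries labelled Capan-2, Malme-3M and Calu-3, a fit added after values were seen, 4 passed. Splitting at a detection p of 0.01 left AsPC-1 alone as expressing against 9 lines, so it compares AsPC-1 with the rest: 131 genes passed, 0 of them among the 7, MTAP stood at -1.92, and the medians were 0.55 for neighbours, 2.78 for replication and 3.47 for mitosis genes.

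Signs turned only for genes that were not called. In the lung lines these were CAAP1 (-0.16), CDK4 (0.34), CDKN1A (0.44), DENND4C (0.60), KDM1A (-0.32), MAT2A (0.14), MOB3B (-0.91), PLAA (-0.17), PLIN2 (0.14), PRMT5 (-0.34) and TUSC1 (2.08). In the pancreatic lines they were CCND1 (0.40), CXCL3 (-0.062), IFNE (0.079), MAT2A (0.20), MLLT3 (0.095), MT1F (-0.56) and RRAGA (0.85). With tissue as a covariate they were CCND1 (0.15), CDK4 (0.14), DENND4C (0.14), MAT2A (0.17), RRAGA (0.48) and TUSC1 (0.48), and with median scaling KDM1A (-0.0091). Without the 3 libraries they were CDK4 (0.36), MAT2A (0.045), RRAGA (0.10) and TUSC1 (1.09). With the split at 0.01 they were C9orf72 (0.75), CCND1 (0.44), CCND2 (2.37), CDK4 (0.74), CXCL2 (-0.55), E2F6 (0.11), FOCAD (2.23), IFI27 (-1.28), IFIT1 (-0.089), LINGO2 (0.96), MAT2A (0.52), MLLT3 (0.54), MOB3B (-0.59), PLIN2 (0.63), RB1 (-0.0035), RRAGA (1.55), SESN1 (0.30) and TUSC1 (2.22). Leaving out 1 line turned CCND1 (-0.33 to 0.17), CDK4 (-0.14 to 0.16), CDKN1A (-0.77 to 0.92), CDKN2C (-0.40 to 0.91), DENND4C (-0.35 to 0.31), KDM1A (-0.090 to 0.21), MAT2A (-0.20 to 0.24), MKI67 (-0.0039 to 0.77), MOB3B (-0.36 to 1.03), PRMT5 (-0.064 to 0.22), RPS6 (-0.0067 to 0.13), RRAGA (-0.29 to 0.22) and TUSC1 (-1.08 to 0.50). The cause of these changes was not tested. No paired analysis was possible because each line is a separate tumour and the replicate numbers only name the lines in accession order. Signal near the detection limit bounds the size of differences for genes at background in 1 group.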
